A study of Homo sapiens with 38 samples.

Results

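Rho0 cells are derivatives of a cell line that have lost their mitochondrial DNA (mtDNA). The results below describe, across all measured genes, how such cells changed expression when they were short of usable glucose. Members were chosen by their titles: 3 stressed rho0 arrays, each read against the rho0 control that its own description names, which makes 6 of the 38 arrays in all. The first stressed array was mtDNA-deficient HT-1080, a human fibrosarcoma line, after 18 h with 2-deoxyglucose (2DG), a glucose analogue that blocks glycolysis. The next was mtDNA-deficient HT-1080 after 18 h of glucose starvation (GS), and it included the floating cells of the culture. The last was mtDNA-deficient HT-29, a colorectal adenocarcinoma line, after 14 h of GS. Per the labels, the shorter time was chosen because 18 h badly damaged the HT-29 rho0 cells. Each rho0 control was the same derivative without stress, and no inhibitor was given to any of the 6 cultures. Values of the 3 stressed arrays are always given in this order: HT-1080 rho0 2DG, HT-1080 rho0 GS, HT-29 rho0 GS. Each combination of line and stress had 1 rho0 array, so the spread over the 3 arrays mixes line, stress, time and culture, and the number of arrays limits the precision. Comparisons used the 8 mtDNA-containing (parental) arrays with the same stress and no compound, each with its own control: 3 of HT-1080 2DG, 2 of HT-1080 GS and 3 of HT-29 GS. Of these, 1 HT-29 array was taken at 14 h, to match the rho0 array, and the other 7 at 18 h. The titles mark floating cells for the HT-1080 rho0 GS array, but not for its control or the 2 parental HT-1080 GS arrays. In that pair the harvest of floating cells and the loss of mtDNA cannot be told apart. Nothing in the labels says whether replicate arrays came from separate cultures, so p-values measure the spread between these arrays, which may be technical in part.

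Cells without mtDNA cannot make the core subunits of the respiratory chain and depend on glycolysis for energy. Shortage of glucose, or 2DG, disturbs protein glycosylation and folding in the endoplasmic reticulum (ER) and so can start the unfolded protein response (UPR). Its sensors PERK, IRE1 and ATF6 raise ER chaperones and the machinery of ER-associated degradation (ERAD), and PERK acts through the factor ATF4 on amino acid supply and on stress factors such as CHOP. The series examined this response in cancer cells under stress, with and without working mitochondria.

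On the rho0 arrays the signals of 7 measured mtDNA-encoded transcripts were at most 15.5, against at least 5380 in parental cells for MT-ND2, MT-ND4, MT-CO1, MT-CO2 and MT-ATP6. EPCAM and CDH1 were high in HT-29 rho0 only, and SPARC and VIM in HT-1080 rho0 only, whereas S100A4 and TAGLN, listed as mesenchymal, were higher in HT-29 rho0. The array-wide signal, taken as a 2% trimmed mean, was 90.2 to 96.3 on the 3 stressed rho0 arrays, 109.5 to 117.5 on their controls and 121.6 to 130.8 on the 8 stressed parental arrays. Every array was scaled to the same trimmed mean of 114, so changes below are relative to an array-wide signal that was lower in the stressed rho0 cells. With the deposited scaling the median gene changed by -0.32, -0.38 and -0.19 (log2) on the 3 arrays, against -0.05, -0.03 and -0.01 after scaling. The 3' to 5' ratio of ACTB, a sign of RNA integrity, was 1.21 to 1.46 on the stressed rho0 arrays, highest in HT-1080 GS, and 1.04 to 1.42 on the stressed parental arrays. The part of array-wide signal and RNA integrity in the results was not tested. In such samples fewer cells of a kind and less RNA per cell cannot be told apart.

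The 3 rho0 arrays shared a limited response. A change of at least 1 (log2, a factor of 2) in 1 direction on all 3 arrays was reached by 111 of 11456 genes (0.969%), of which 36 were higher (0.314%) and 75 lower (0.655%). In the limma fit over 22 arrays, which borrows the spread of the parental pairs, 562 genes rose (4.91%) and 930 fell (8.12%) at an adjusted p under 0.05 with 1 sign on all 3 arrays, 13.0% in all. The same test on the 6 rho0 arrays alone called 48 rises (0.419%) and 89 falls (0.777%). Of the 111 genes, 34 of the 36 and 73 of the 75 passed the fit over 22 arrays. Another 35 genes passed the adjusted p with mixed signs and are not counted. The count of 1492 calls fell to 500 without the HT-1080 rho0 GS array and its control and to 612 without the HT-1080 rho0 2DG array, and it was 1836 without the HT-29 rho0 array. Across genes, which are not independent replicates, the changes correlated at r = 0.45 between both HT-1080 rho0 arrays, at 0.22 between HT-1080 rho0 2DG and HT-29 rho0 GS, and at 0.31 between both GS arrays. Parental arrays of the same line and stress correlated at 0.415 to 0.645 and the others at 0.158 to 0.491.

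The difference between the rho0 and the parental response was tested as 1 term over the 3 pairs of line and stress. The change was higher in rho0 cells for 702 genes (6.13%) and lower for 892 (7.79%) at an adjusted p under 0.05 with 1 sign in all 3 pairs, 13.9% in all. With the deposited scaling 174 were higher and 1813 lower, so the share of higher calls went from 44% to 8.76%. For the response itself that scaling gave 136 rises and 2340 falls, or 5.49% rises against 37.7%. The count of 1594 differences was 438 without the HT-1080 rho0 GS array, 744 without HT-1080 rho0 2DG and 1061 without replicate 2 of the parental HT-1080 2DG arrays. There were 78 genes whose parental mean was at least 1 in each of the 3 pairs. Of these, 6 reached 1 on all 3 rho0 arrays (ATF3, CREBRF, DDIT3, EGR1, GDF15 and SLC3A2), against 0.314% of all genes. Another 46 stayed within 1 of no change on every rho0 array, for which no share over all genes was counted. The median rho0 change of the 78 was 0.21, beside parental medians of 1.54, 1.75 and 1.92 that the choice of these genes fixed. Of 29 genes at -1 or below in each parental mean, 3 were so on all 3 rho0 arrays, against 0.655% of all genes.

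**Figure D1:**
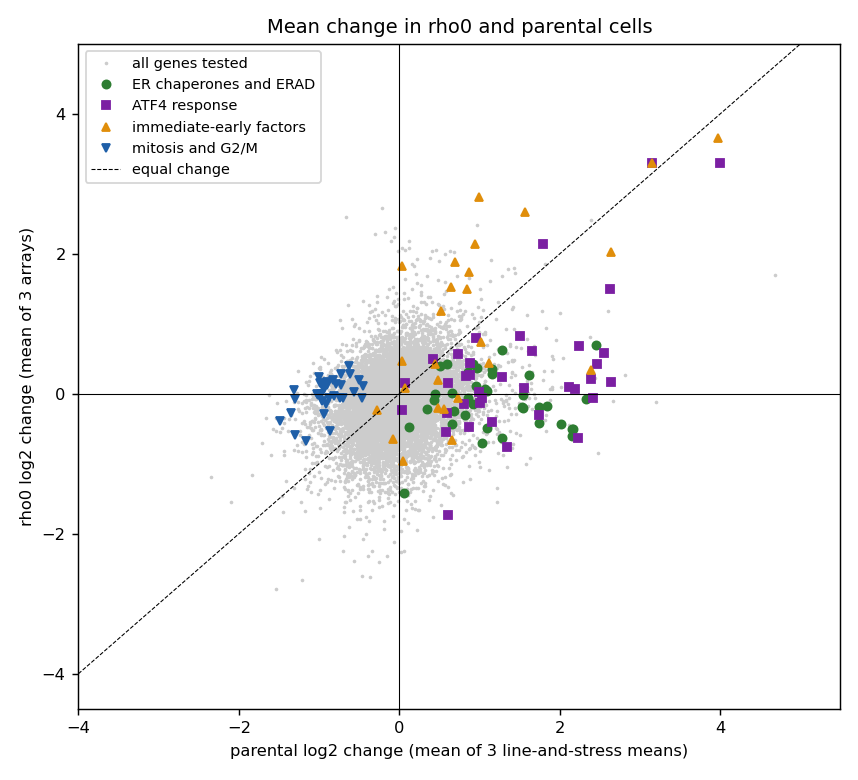
Mean log2 change on the 3 rho0 arrays (vertical axis) against the mean of the parental means of the same line and stress (horizontal axis) for 11456 genes, with 4 gene lists marked and a line of equal change. Median changes in rho0 cells were -0.12 over the ER list and 0.15 over the ATF4 list, so most of their members lie near the horizontal axis and below the line of equal change.

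ER chaperones and ERAD factors as a group showed little change in the stressed rho0 cells. Over the 38 measured of 42 listed genes the median change was 0.08, -0.08 and -0.30, whereas the medians of the 8 parental arrays ran from 0.23 to 1.43. In the response, 2 of the 38 rose (HSPA5 and PPIB) and 2 fell (EDEM3 and SPCS3), against 4.91% and 8.12% of all genes. Rises numbered 0 without either HT-1080 rho0 array, after quantile normalization and with the deposited scaling, and 1 without parental replicate 1 or 2 of HT-1080 2DG or replicate 1 or 2 of HT-1080 GS. Falls numbered 1 without either HT-1080 rho0 array, 6 without the parental HT-29 array at 14 h and 8 with the deposited scaling. In the difference from parental cells, 29 of 38 were lower in rho0 and none was higher, against 7.79% and 6.13% of all genes. The count of 29 was 37 with the deposited scaling, 31 after quantile normalization, 29 when the 14 h array alone stood for parental HT-29, and 19 without the HT-1080 rho0 GS array.

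HSPA5 encodes BiP, the main ER chaperone and the usual marker of the UPR. Its signal went from 3390 to 6151, from 3572 to 6105 and from 4403 to 5193, and the 3 stressed values all lay above the 3 controls. The mean log2 change over the 3 rho0 arrays was 0.62 ± 0.14 (limma adjusted p = 0.0107). Here and below, ± is the standard error (SE) from the limma fit, which borrows the spread of the parental pairs. It is not the SE of the 3 rho0 changes alone and can understate how far these arrays disagree. Parental arrays changed by 0.70 to 1.56, a range that held the HT-1080 rho0 changes of 0.86 and 0.77 but not the HT-29 rho0 change of 0.24. The difference of -0.66 ± 0.15 passed (limma adjusted p = 0.0124). The call of the rise was lost in 7 of 14 alternatives. Among them were the 6 rho0 arrays alone (adjusted p = 0.0642), the deposited scaling (0.0561) and quantile normalization (0.0855). It was lost too over the mean of its probe sets (0.105) and with no intensity trend in the fit (0.0596). The others left out either HT-1080 rho0 array (0.0927 without 2DG, 0.0913 without GS). The difference was lost without the HT-1080 rho0 GS array (0.061), without the HT-29 rho0 array (0.0581) and with no intensity trend (0.0621). Here and below, the alternatives named for a lost call need not be all that lost it. A dimmer probe set of HSPA5 changed by 0.13, -0.04 and 0.26.

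HSP90B1, PDIA4 and CRELD2 were not called in the rho0 response. HSP90B1, the ER member of the HSP90 family, changed by 0.48, 0.66 and -0.34, against 0.25 to 2.32 in parental cells, a difference of -1.36 ± 0.20 (limma adjusted p = 0.00179). PDIA4, a protein disulfide isomerase, changed by 0.13, -0.27 and -0.41, against 0.12 to 2.24, a difference of -1.71 ± 0.23 (adjusted p = 0.00137). CRELD2, an ER folding factor, had signals that went from 362 to 270.4, from 375 to 279 and from 760.2 to 481. It was lower than its control on each array, but the mean of -0.50 ± 0.25 did not pass (adjusted p = 0.207). In parental cells CRELD2 changed by 0.40 to 2.98, and the difference of -2.63 ± 0.32 passed (adjusted p = 0.000967). The lowest parental values of these genes were on the HT-29 array at 14 h: 0.25 for HSP90B1, 0.12 for PDIA4 and 0.40 for CRELD2. The differences of HSP90B1, PDIA4 and CRELD2 passed in every alternative that was run.

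Factors of ERAD differed further. HERPUD1, a membrane scaffold of ERAD, changed by -1.97, -0.27 and 0.41 in rho0 cells and by 1.35 to 3.63 in parental cells, a difference of -2.79 ± 0.37 (limma adjusted p = 0.00137). SEL1L, the partner of the ubiquitin ligase HRD1, changed by -0.54, -1.01 and 0.05 and by 0.98 to 2.84 (difference -2.63 ± 0.35, adjusted p = 0.00137). In neither gene did a rho0 value reach the parental range, and both differences passed in every alternative run. Both genes were among the largest called differences, a choice that favours such gaps. Here and below, the share of all genes with no overlap between rho0 and parental values was not counted. EDEM3, which prepares misfolded glycoproteins for degradation, was the 1 list member below -1 on all 3 arrays. Its signal went from 399 to 158, from 488 to 138 and from 397 to 175, with no overlap between controls and stressed arrays. The mean was -1.41 ± 0.18 (adjusted p = 0.000554), and parental cells changed by -0.37 to 0.51. DNAJB9, an ER co-chaperone, changed by 1.86, 0.56 and -0.32, past 1 on the 2DG array only. Its difference of -1.75 ± 0.53 (adjusted p = 0.0401) was lost without the HT-1080 rho0 GS array (0.147) and without the HT-29 rho0 array (0.284), and also without parental replicate 1 of HT-1080 2DG (0.0658), replicate 1 of HT-1080 GS (0.0813), replicate 2 of HT-1080 GS (0.0543) or replicate 1 of HT-29 GS (0.0604).

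The promoters of 3 chaperones are shown because they carry the ER stress response element, through which ATF6 is known to act. In the rho0 response HSPA5 was called as a rise, and CRELD2 and HSP90B1 were not called. Sequences are RefSeq windows on GRCh38.p14 from 250 bases before to 50 bases after the gene's start, read 5′ to 3′ on the gene's strand. Capitals mark the element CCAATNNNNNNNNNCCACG on either strand. HSPA5 lies at chr9:125241294-125241593 (minus strand), CRELD2 at chr22:49918384-49918683 (plus strand) and HSP90B1 at chr12:103930160-103930459 (plus strand).
HSPA5: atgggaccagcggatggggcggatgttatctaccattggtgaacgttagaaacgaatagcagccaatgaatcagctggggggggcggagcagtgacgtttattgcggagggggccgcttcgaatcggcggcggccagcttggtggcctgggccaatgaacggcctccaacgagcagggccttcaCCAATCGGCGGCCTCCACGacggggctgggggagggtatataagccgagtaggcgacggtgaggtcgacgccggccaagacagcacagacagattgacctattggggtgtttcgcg
CRELD2: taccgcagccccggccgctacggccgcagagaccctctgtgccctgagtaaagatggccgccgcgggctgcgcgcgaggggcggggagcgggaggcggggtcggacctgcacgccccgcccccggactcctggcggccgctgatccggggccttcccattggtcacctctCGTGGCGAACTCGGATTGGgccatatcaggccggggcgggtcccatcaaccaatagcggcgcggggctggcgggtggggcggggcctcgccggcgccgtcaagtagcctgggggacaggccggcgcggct
HSP90B1: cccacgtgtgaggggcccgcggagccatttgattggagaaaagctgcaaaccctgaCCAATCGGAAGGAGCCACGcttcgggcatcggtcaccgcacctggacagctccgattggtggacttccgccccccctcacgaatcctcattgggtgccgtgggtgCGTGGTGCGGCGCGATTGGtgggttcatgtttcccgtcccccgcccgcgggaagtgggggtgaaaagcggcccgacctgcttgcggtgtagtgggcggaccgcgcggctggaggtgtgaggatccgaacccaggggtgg
The element occurred 1 time each in HSPA5 and CRELD2 and 2 times in HSP90B1. It was found for 7 of the 35 list members with a window (CALR, CANX, CRELD2, ERO1B, HSP90B1, HSPA5 and PDIA6), for 0.159% of the 9410 tested genes with a window, and in 0.0769% of all 35116 windows. It was found for 0 of the 28 genes with a window that were higher by at least 1 on all 3 rho0 arrays and for 0 of the 62 that were lower.

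**Figure D2:**
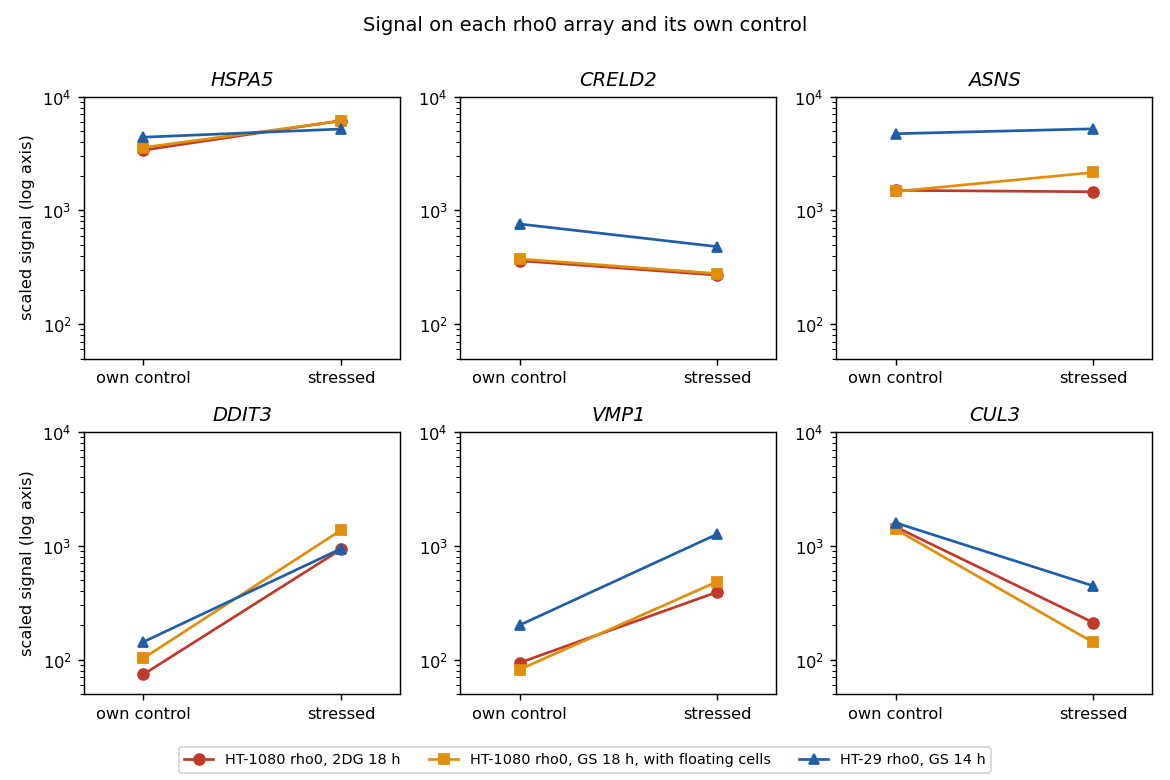
Scaled signal (log axis) of 6 genes on each rho0 control and on the stressed array read against it, with 1 line per pair. DDIT3 and VMP1 were higher and CUL3 lower on all 3 stressed arrays, whereas CRELD2 was lower and HSPA5 higher by smaller amounts.

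Among UPR sensors and factors, 3 of 14 measured genes rose in the rho0 response (DDIT3, PPP1R15A and NFE2L2), none fell, and 3 of 14 were lower than in parental cells, against 4.91%, 8.12% and 7.79% of all genes. Falls numbered 1 without HT-29 rho0 or without the parental HT-29 array at 14 h and 3 with the deposited scaling, with which 7 of 14 were lower than in parental cells. XBP1, the factor that IRE1 activates by splicing, changed by 0.16, 0.87 and 0.38, a mean of 0.47 ± 0.23 that did not pass (limma adjusted p = 0.192). Its difference of -0.94 ± 0.26 (adjusted p = 0.0285) was lost without each of the 3 rho0 arrays in turn (0.148, 0.074 and 0.0691) and without parental replicate 1 of HT-1080 2DG (0.0538), replicate 2 of HT-1080 2DG (0.0534) or replicate 1 of HT-1080 GS (0.0618). EIF2AK3, the gene of PERK, changed by -1.25, -0.62 and -0.28 in rho0 cells and by 0.88 to 2.70 in parental cells (difference -2.15 ± 0.31, adjusted p = 0.00164). ERN1, the gene of IRE1, changed by -0.33, -0.16 and 0.24 and by 0.91 to 3.63 (difference -1.98 ± 0.36, adjusted p = 0.00497). For both sensors every rho0 value lay below every parental value, but they were picked as the largest called differences of their list, which favours such gaps.

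Genes of the ATF4 response split in rho0 cells. Over its 37 genes the rho0 medians were -0.04, 0.11 and 0.30, against 0.50 to 1.77 on the parental arrays. In the response 5 of the 37 rose (ATF3, DDIT3, GDF15, MTHFD2 and SLC3A2) and none fell, against 4.91% and 8.12% of all genes. Falls numbered 1 after quantile normalization, 5 with the deposited scaling and 4 without the HT-29 rho0 array. In the difference 21 of 37 were lower in rho0 and none was higher, against 7.79% and 6.13% of all genes, and that count was 13 without the HT-1080 rho0 2DG array and 14 without the HT-1080 rho0 GS array.

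None of ATF4, ASNS, TRIB3, SLC7A11, SLC38A2 and CHAC1 was called in the response, whereas SLC3A2 and MTHFD2 of this list rose. ATF4 missed the threshold. The arrays of the others did not share a sign, which bars a call at any adjusted p. ATF4 itself went from 3048 to 4180, from 3237 to 5277 and from 5374 to 5849, a mean change of 0.43 ± 0.17 that did not pass (limma adjusted p = 0.107). ASNS, asparagine synthetase, went from 1502 to 1459, from 1468 to 2157 and from 4724 to 5213. Its 3 changes of -0.04, 0.55 and 0.14 all lay below the parental range of 1.28 to 3.18, and the difference was -2.19 ± 0.30 (adjusted p = 0.00141). TRIB3, a pseudokinase that feeds back on ATF4, changed by -0.84, 0.27 and 0.38 against 1.81 to 3.19 (difference -2.50 ± 0.28, adjusted p = 0.000967). SLC7A11, the cystine transporter, had a difference of -2.05 ± 0.32 (adjusted p = 0.00238) on rho0 changes of -1.15, -0.09 and 0.35. SLC38A2, a neutral amino acid transporter, went from 1346 to 86.4, from 1371 to 520 and from 2414 to 2524, low on both HT-1080 arrays and near its control in HT-29, so its arrays did not share a sign. Its difference of -2.36 ± 0.42 passed (adjusted p = 0.00454). CHAC1, a glutathione-degrading enzyme, changed by -2.75, 1.54 and -0.68, and its difference of -2.98 ± 0.98 did not pass (adjusted p = 0.0584). Its stressed 2DG signal of 2.36 lies below the offset of 5.69 added to every signal, so the size of that change depends on the offset.

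Of 15 aminoacyl-tRNA synthetases, which charge tRNAs with amino acids, 1 rose (KARS1) and 1 fell (RARS1), against 4.91% and 8.12% of all genes, and 8 had a lower and 1 a higher change than in parental cells, against 7.79% and 6.13%. The rise was lost without the HT-1080 rho0 GS array, and falls numbered 0 without HT-1080 rho0 2DG and 2 without HT-29 rho0. The 1 higher difference was lost without HT-1080 rho0 GS, without HT-29 rho0 and without parental replicate 2 of HT-1080 2DG, replicate 1 of HT-1080 GS or replicate 2 of HT-1080 GS. AARS1 changed by -0.12, -0.08 and -0.05 against 0.81 to 1.62 (difference -1.28 ± 0.16, limma adjusted p = 0.00103), and WARS1 by -0.58, -0.40 and 0.10 against 0.64 to 2.61 (difference -2.12 ± 0.31, adjusted p = 0.00163). The differences of AARS1, WARS1, ASNS, TRIB3, SLC7A11, SLC38A2, EIF2AK3 and ERN1 passed in every alternative run that tested them.

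Among the members of the UPR and ATF4 lists that rose were DDIT3, ATF3, PPP1R15A, GDF15 and SLC3A2. DDIT3, which encodes CHOP, went from 74.3 to 929.8, from 103 to 1373 and from 143 to 943. The stressed and control signals did not overlap, and the mean change was 3.29 ± 0.50 (9.813-fold, limma adjusted p = 0.00185). In parental cells DDIT3 changed by 0.85 to 6.37, and the difference of -0.74 ± 0.73 did not pass (adjusted p = 0.551). ATF3, an early stress factor, went from 207 to 4701, from 149.8 to 958 and from 122 to 887 (mean 3.30 ± 0.50, adjusted p = 0.00185). PPP1R15A, the GADD34 subunit that reverses PERK's block of translation, went from 603 to 4904, from 476.5 to 1062 and from 109 to 1108 (mean 2.48 ± 0.36, adjusted p = 0.00139). For GDF15, a secreted stress cytokine, the 3 changes were 2.16, 1.61 and 2.64 (adjusted p = 0.00304). The differences of 0.14 ± 0.91 for ATF3, 0.13 ± 0.49 for PPP1R15A and 0.35 ± 0.43 for GDF15 did not pass, which leaves wide intervals and does not show equal responses. SLC3A2, the heavy chain of amino acid exchangers, had changes of 2.13, 1.24 and 1.15 (adjusted p = 0.00218), beside 1.12 to 3.59 in parental cells. Its difference of -1.12 ± 0.26 (adjusted p = 0.0147) was lost without either HT-1080 rho0 array (0.0734 without 2DG, 0.0913 without GS). The rises of DDIT3, ATF3, PPP1R15A, GDF15 and SLC3A2 passed in every alternative run.

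**Figure D3:**
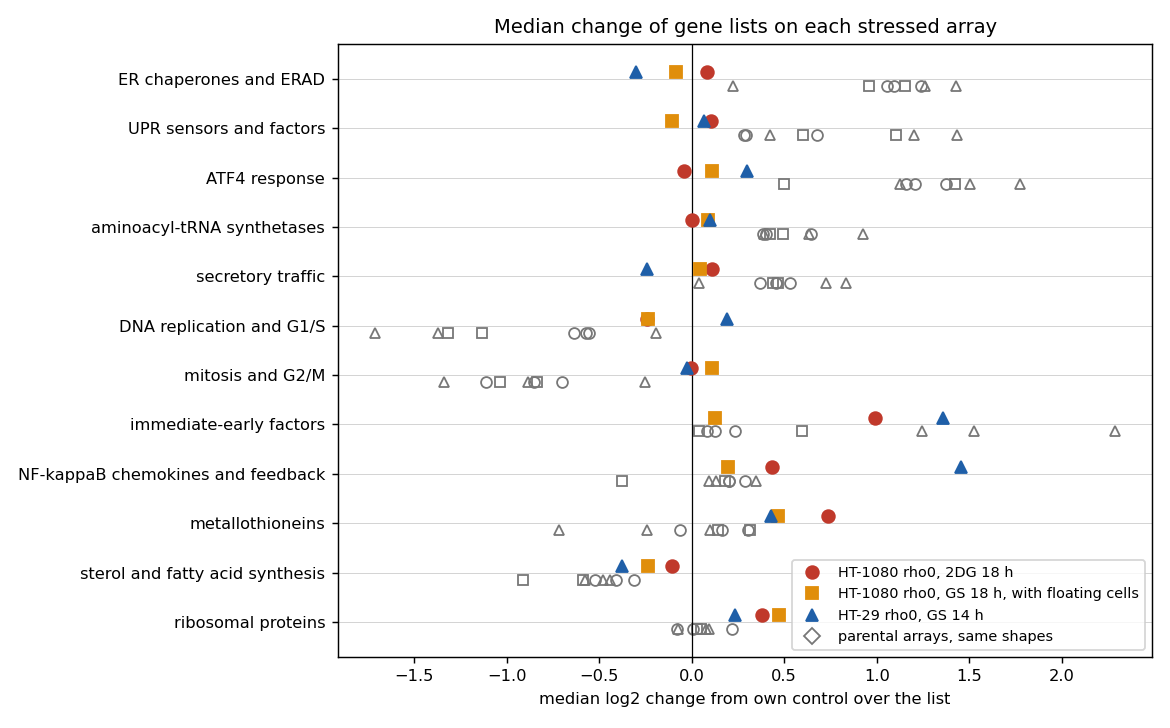
Median log2 change from the own control over the measured members of 12 gene lists, with a filled symbol for each of the 3 stressed rho0 arrays and an open symbol for each of the 8 parental arrays. For the ER list the rho0 symbols lie between -0.30 and 0.08 and the parental ones between 0.23 and 1.43, and for the mitosis list between -0.03 and 0.11 and between -1.34 and -0.25.

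Some stress-linked genes of other lists also differed from parental cells. VEGFA, an angiogenic factor, changed by -1.72, -0.46 and 0.12 in rho0 cells and by 0.00 to 2.90 in parental cells, ranges that overlapped. Its difference of -1.98 ± 0.31 (limma adjusted p = 0.0022) passed in every alternative run. WIPI1, a protein of early autophagosomes, changed by -0.61, -0.44 and -1.48 against -0.05 to 5.55, the lowest parental value being the HT-29 array at 14 h. Its difference of -3.33 ± 0.83 (adjusted p = 0.019) was lost without the HT-1080 rho0 GS array (0.0806) or the HT-29 rho0 array (0.0964). HMOX1, heme oxygenase, changed by 0.22, 0.12 and -0.68 against 0.91 to 7.18, and its difference of -3.24 ± 0.85 (adjusted p = 0.023) was lost without the same arrays (0.175 and 0.088). TXNIP, a glucose-responsive arrestin, changed by 0.71, 0.51 and -1.65 in rho0 cells. It changed by 2.97 to 3.46 on the parental 2DG arrays, by -0.85 to -0.10 on the HT-1080 GS arrays and by -0.87 to 0.05 on the HT-29 GS arrays, and its difference did not pass (adjusted p = 0.16).

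Median changes of the cell cycle lists were small in stressed rho0 cells. Over 33 genes of mitosis and G2/M the rho0 medians were -0.01, 0.11 and -0.03 and the parental ones -1.34 to -0.25. In the response 1 of the 33 fell (CENPA, a call lost without any 1 of the 7 HT-1080 arrays) and none rose, against 8.12% and 4.91% of all genes, and 22 had a higher change than in parental cells and none a lower one, against 6.13% and 7.79%. The count of 22 was 15 with the deposited scaling, 13 without the HT-1080 rho0 2DG array and 2 without the HT-1080 rho0 GS array, while the median difference was 0.94 with and 0.88 without the latter. Over 38 genes of DNA replication and G1/S the rho0 medians were -0.24, -0.24 and 0.19 and the parental ones -1.71 to -0.19. At -1 or below were 9, 5 and 2 of the 38, against 10.9%, 7.04% and 4.67% of all genes. In the response 4 fell (CCNE1, CDC25A, FEN1 and SKP2), against 8.12% of all genes. A higher change than in parental cells was called for 11, against 6.13%. For both lists the smallest parental fall in the median was on the HT-29 array at 14 h. The 4 falls became 1 without either HT-1080 rho0 array. The 11 became 2 without HT-1080 rho0 GS, 5 without HT-29 rho0, 17 without HT-1080 rho0 2DG and 22 without the parental HT-29 array at 14 h.

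RRM2, a subunit of ribonucleotide reductase, went from 4561 to 4810, from 3564 to 3647 and from 1372 to 1506 in rho0 cells. Parental cells changed by -2.02 to -0.90, and the difference of 1.38 ± 0.20 (limma adjusted p = 0.00151) passed in every alternative run. CCNA2, cyclin A, changed by -0.03, 0.05 and 0.14 against -2.36 to -0.60 (difference 1.36 ± 0.29, adjusted p = 0.00999). KIF11, a spindle motor, changed by -0.09, -0.28 and 0.17 against -1.92 to -0.31 (difference 1.24 ± 0.27, adjusted p = 0.0112). MCM10, a replication initiation factor, changed by -0.31, 0.03 and 0.23 against -3.04 to -0.66 (difference 1.59 ± 0.38, adjusted p = 0.016). No rho0 value of RRM2, CCNA2, KIF11 or MCM10 lay within the parental range. These genes were picked as the largest called differences of their lists, which favours such gaps. The differences of CCNA2, KIF11 and MCM10 were lost without the HT-1080 rho0 GS array (0.0619, 0.0566 and 0.114), and that of MCM10 also without the HT-29 rho0 array (0.0779).

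A pair of cell cycle regulators fell instead. CDC25A, the phosphatase that activates CDK2, went from 198 to 3.42, from 95 to 11.9 and from 80.9 to 27.9, the largest mean fall among genes below -1 on all 3 arrays (-2.79 ± 0.45, limma adjusted p = 0.00218). The signal of 3.42 lies below the offset of 5.69, so the size of that change depends on it, and the other probe sets of CDC25A changed by -2.25, -0.95 and -0.30 and by -0.79, -0.67 and -0.28. Parental cells changed by -2.50 to -0.65, and the difference did not pass (adjusted p = 0.131). SKP2, a ubiquitin ligase subunit that targets p27, went from 797 to 197, from 731 to 308 and from 721 to 267 (mean -1.55 ± 0.37, adjusted p = 0.0149). That call was lost without the HT-1080 rho0 2DG array (0.0972) or the HT-1080 rho0 GS array (0.0608), and parental cells changed by -3.50 to -0.81.

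Immediate-early factors, the first genes to answer growth factors and many stresses, held 26 measured members. Of these 11 rose (ATF3, CCN1, CCN2, DUSP1, DUSP5, EGR1, FOSL1, JUN, JUNB, KLF6 and MYC) and 1 fell (FOSL2), against 4.91% and 8.12% of all genes. With the 6 rho0 arrays alone 7 rose. The medians were uneven: 0.99, 0.13 and 1.35. On the parental HT-29 arrays the median was 1.24 to 2.29, and in the difference 3 members were higher and 2 lower, against 6.13% and 7.79% of all genes. Falls in the response numbered 0 without either HT-1080 rho0 array and 4 without HT-29 rho0. Higher differences numbered 0 without HT-1080 rho0 2DG, 1 without HT-1080 rho0 GS or parental replicate 1 or 2 of HT-1080 2DG, and 6 without HT-29 rho0 or parental replicate 2 of HT-29 GS. Lower ones numbered 0 without HT-1080 rho0 GS and 1 without HT-1080 rho0 2DG, parental replicate 2 of HT-1080 2DG, or replicate 1 or 2 of HT-1080 GS.

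EGR1, a zinc-finger factor, had the largest mean rise of the genes past 1 on all 3 arrays. Its signal went from 107.5 to 828.5, from 80.2 to 1076 and from 123.5 to 2796, so every stressed array stood above every control. The mean change was 3.66 ± 0.49 (12.63-fold, limma adjusted p = 0.000878), parental cells changed by 2.13 to 7.41, and the difference did not pass (adjusted p = 0.831). DUSP5, a phosphatase that inactivates ERK in the nucleus, went from 824 to 6769, from 834 to 1932 and from 85.2 to 1068 (mean 2.60 ± 0.40, adjusted p = 0.00189). CCN2, a matrix-associated factor also known as CTGF, changed by 3.25, 0.96 and 4.24 (mean 2.82 ± 0.48, adjusted p = 0.00321). Its difference of 1.86 ± 0.51 (adjusted p = 0.0282) was lost without either HT-1080 rho0 array (0.247 without 2DG, 0.0548 without GS) and without parental replicate 1 of HT-1080 2DG (0.054), replicate 2 of HT-1080 2DG (0.0522) or replicate 2 of HT-1080 GS (0.0614). MYC, a growth-promoting factor, went from 612 to 9016, from 495 to 1267 and from 2631 to 3168, so the large rise was on the 2DG array and the HT-29 control lay above the stressed HT-1080 GS value. Its rise (1.83 ± 0.43, adjusted p = 0.0145) was lost without the HT-1080 rho0 2DG array (0.083), without the HT-1080 rho0 GS array (0.0526) and with the 6 rho0 arrays alone (0.0983). Its difference of 1.84 ± 0.44 (adjusted p = 0.0158) was lost without the HT-1080 rho0 2DG array (0.078).

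The promoters of EGR1 and ATF3 are shown as those of the leading rises. In EGR1 (chr5:138465229-138465528, plus strand, GRCh38.p14) capitals mark CArG boxes, the sites of serum response factor. In ATF3 (chr1:212565157-212565456, plus strand, 1 of 2 start windows) capitals mark TGATGNAA, the core of the element through which ATF4 is known to act. The other start window of ATF3 did not hold TGATGNAA.
EGR1: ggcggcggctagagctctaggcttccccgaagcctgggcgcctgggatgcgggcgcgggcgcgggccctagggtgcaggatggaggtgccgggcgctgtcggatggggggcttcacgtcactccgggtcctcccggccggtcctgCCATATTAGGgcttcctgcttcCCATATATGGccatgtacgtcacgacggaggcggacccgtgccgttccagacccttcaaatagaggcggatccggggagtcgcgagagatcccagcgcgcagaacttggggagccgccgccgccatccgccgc
ATF3: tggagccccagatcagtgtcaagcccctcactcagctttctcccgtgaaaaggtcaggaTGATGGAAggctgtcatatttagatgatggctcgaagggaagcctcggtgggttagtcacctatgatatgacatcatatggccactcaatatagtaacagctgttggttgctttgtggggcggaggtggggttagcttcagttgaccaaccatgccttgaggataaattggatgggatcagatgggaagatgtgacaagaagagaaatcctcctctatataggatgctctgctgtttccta
On both strands, the CArG box was found for 2 of the 18 immediate-early genes with a window (EGR1 and SRF). It was found for 1 of the 28 genes past 1 upwards on all 3 rho0 arrays and for 1 of the 62 past 1 downwards. Its share was 1.59% of tested genes with a window and 1.29% of all windows. TGATGNAA was found for 10 of 30 genes of the ATF4 list with a window. Of the 28 genes past 1 upwards it was found for 4 (ATF3, GPATCH2L, PLK3 and SLC3A2), or 14.3%. Of the 62 past 1 downwards it was found for 4 (C2CD2, KIAA0232, LFNG and SPIRE1), or 6.45%. Its share was 3.07% of tested genes with a window and 3.62% of all windows.

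Growth arrest and death genes were among the rises. GADD45A, a growth arrest gene, went from 2341 to 9474, from 1902 to 5631 and from 110.1 to 403.5 (mean 1.80 ± 0.18, limma adjusted p = 0.000161), higher on each array although the stressed HT-29 signal lay below both HT-1080 controls. PLK3, a stress-activated kinase, went from 57.1 to 360.3, from 53.7 to 132 and from 24.8 to 146 (mean 2.03 ± 0.28, adjusted p = 0.000926). Its difference of 1.36 ± 0.32 (adjusted p = 0.0154) was lost without the HT-1080 rho0 2DG array (0.132). PMAIP1, which encodes the pro-apoptotic NOXA, rose by 1.58, 0.71 and 0.98 (adjusted p = 0.0113), and that call was lost without the 2DG array (0.0958). Of 16 p53 targets these 3 rose and TP53INP1 fell, against 4.91% and 8.12% of all genes, and the fall was lost without either HT-1080 rho0 array. Of 20 apoptosis regulators 2 rose and 2 fell. Their rises numbered 1 without HT-1080 rho0 2DG. Their falls numbered 0 without HT-1080 rho0 2DG, 5 without HT-29 rho0, and 1 without HT-1080 rho0 GS or without parental replicate 2 or 3 of HT-1080 2DG or replicate 1 or 2 of HT-29 GS. XIAP, an inhibitor of caspases, changed by -1.62, -0.70 and -0.72 (adjusted p = 0.00732), a fall lost without the 2DG array (0.0677), with the 6 rho0 arrays alone (0.0754) and over the mean of its 7 probe sets (0.083), of which 1 changed by 1.74, 0.34 and -0.10. Its difference of -1.28 ± 0.23 (adjusted p = 0.0047) passed in every alternative run.

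VMP1, an ER membrane protein needed for autophagy, showed an even rise and was the 1 of 23 autophagy and lysosome genes to pass, against 13.0% of all genes. Without HT-1080 rho0 2DG or the parental HT-29 array at 14 h 2 of the 23 rose, and without the latter 2 fell. The VMP1 signal went from 93.9 to 392.5, from 81.9 to 484 and from 201 to 1266. The changes of 2.00, 2.48 and 2.62 gave a mean of 2.37 ± 0.19 (5.163-fold, limma adjusted p = 2.32e-05). The 8 parental arrays ran from -1.03 to 0.69, with no overlap, and the difference was 2.39 ± 0.25 (adjusted p = 0.000514). Both calls passed in every alternative run, and VMP1 was read by 1 probe set. EDN1, the vasoconstrictor peptide endothelin-1, rose by 4.61, 1.84 and 1.12 (adjusted p = 0.00803), where parental cells changed by -2.61 to 0.43 (difference 3.22 ± 0.48, adjusted p = 0.0019). Its HT-1080 rho0 control signals of 0.865 and 5.93 were near or below the offset of 5.69, so the size of those changes depends on it, and the rise was lost without the 2DG array (0.0694). BHLHE40, a stress-induced repressor, went from 154 to 4782 with 2DG but changed by 1.33 and 1.02 on the GS arrays. Its rise (adjusted p = 0.0217) was lost without the 2DG array (0.217), and another probe set of BHLHE40 changed by 1.92, 0.05 and -0.02.

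Chemokines and feedback genes of NF-kappaB rose unevenly. Of 17 measured members 6 rose (CXCL3, CXCL8, LIF, NFKB2, NFKBIA and TNFAIP3) and none fell, against 4.91% and 8.12% of all genes. With the deposited scaling 2 rose, without the HT-1080 rho0 2DG array 2, without the HT-29 rho0 array 2, and with the 6 rho0 arrays alone 0 in limma, where 2386 of all genes had an unadjusted p under 0.05. CXCL8, the chemokine interleukin-8, went from 293 to 533, from 59.4 to 303 and from 243 to 7385 (mean 2.66 ± 0.51, adjusted p = 0.00507), highest in HT-29. Its difference of 2.87 ± 0.42 (adjusted p = 0.00179) passed in every alternative run. NFKBIA, the inhibitor of NF-kappaB, changed by 1.95, 0.20 and 1.82 against -0.96 to 0.20 (difference 1.82 ± 0.31, adjusted p = 0.00381), and its rise was lost without the 2DG array (0.0737). TNFAIP3, the A20 feedback enzyme, changed by 2.76, 0.21 and 3.28. Its rise (adjusted p = 0.022) was lost in 7 of 13 alternatives. Among them were leaving out the HT-1080 rho0 2DG array (0.14) or the HT-29 rho0 array (0.132), an offset of 1% (0.0521) and no intensity trend (0.0511). Its difference of 2.01 ± 0.55 (adjusted p = 0.0282) was lost without the same arrays (0.147 and 0.127). It was lost as well without parental replicate 1 of HT-1080 2DG (0.0502) or replicate 2 of HT-1080 GS (0.0502). An offset of 1% (0.0721), the mean of probe sets (0.0618) and no intensity trend (0.0534) also lost the difference. Another probe set of TNFAIP3, of similar brightness, changed by 0.88, -0.44 and 2.88. In HT-1080 GS, the array with floating cells, both NFKBIA and TNFAIP3 stayed near their controls.

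Shared falls were more numerous than shared rises. Of the 75 genes below -1 on all 3 arrays, 55 were past -1 in no parental mean. In the matching parental means 4, 8 and 18 of the 75 were past -1, against 0.978%, 3.40% and 4.45% of all genes. Of the 36 genes above 1 on all 3, 18 were past 1 in no parental mean. Past 1 in these means were 6, 9 and 18 of the 36, against 2.19%, 3.40% and 4.47% of all genes. Both sets thus moved in parental cells more often than all genes did, although many members did not. Parental medians over the 75 were -0.05, -0.24 and -0.41, and over the 36 they were 0.20, 0.65 and 0.97, beside rho0 medians of -1.45 and 1.90 that the choice of the genes fixed.

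CUL3, the scaffold of a family of ubiquitin ligases that includes the one for NRF2, went from 1466 to 212, from 1395 to 142 and from 1594 to 445. The stressed arrays all lay below every control, and the mean change was -2.61 ± 0.20 (limma adjusted p = 2.32e-05). Parental cells changed by -0.80 to -0.07, and the difference was -2.22 ± 0.23 (adjusted p = 0.000514). MAT2A, which makes the methyl donor S-adenosylmethionine, went from 1485 to 149, from 1191 to 180.4 and from 1805 to 438 (mean -2.66 ± 0.27, adjusted p = 0.000161). Parental cells changed by -2.46 to -0.47, a range that overlaps, and the difference of -1.44 ± 0.38 (adjusted p = 0.0242) was lost without either HT-1080 rho0 array (0.186 without 2DG, 0.136 without GS). It was lost without parental replicate 2 of HT-1080 GS (0.0534), and without replicate 3 of HT-29 GS because its sign was then mixed. ZC3HAV1, an antiviral RNA-binding protein, went from 387 to 34.6, from 343 to 78 and from 344 to 57.3 (mean -2.61 ± 0.24, adjusted p = 8.42e-05; difference -2.17 ± 0.27). A dim probe set of ZC3HAV1 changed by 0.06, 0.26 and 0.45.

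Other shared falls were of similar size. DLG1, a scaffold of cell polarity, changed by -3.22, -2.08 and -1.47 (limma adjusted p = 0.000252) against -0.55 to 0.27 in parental cells, although a dim probe set changed by -0.79, 1.99 and 0.94. ZNF652, a zinc-finger repressor, changed by -3.09, -2.09 and -1.76 against parental means of -0.15, -0.26 and -0.75. NT5DC2, of the 5'-nucleotidase family, changed by -2.42, -2.15 and -1.68 against -0.91 to -0.10. None of DLG1, ZNF652 and NT5DC2 overlapped the parental range, and their differences were -2.28 ± 0.28, -1.93 ± 0.28 and -1.64 ± 0.20. They were picked among the largest mean falls in rho0 cells, which favours such gaps. LPCAT1, a phospholipid remodelling enzyme, changed by -2.99, -2.08 and -1.15 against -1.54 to -0.65. Its difference of -1.09 ± 0.31 (adjusted p = 0.0309) was lost without either HT-1080 rho0 array (0.262 without 2DG, 0.0791 without GS) and without parental replicate 1 of HT-1080 2DG (0.0582), replicate 2 of HT-1080 2DG (0.059), replicate 3 of HT-1080 2DG (0.055) or replicate 2 of HT-1080 GS (0.062). RNF145, an ER ubiquitin ligase, changed by -2.20, -2.62 and -1.26 against -1.16 to -0.02 (difference -1.32 ± 0.21, adjusted p = 0.00222), a difference lost over the mean of its probe sets (0.0773). HOXC13, a homeobox factor, went from 34.5 to 2.78, from 52.2 to 3.03 and from 36.2 to 3.32, and as the stressed signals lie below the offset of 5.69 the size of its fall depends on it. The falls of CUL3, MAT2A, ZC3HAV1, DLG1, ZNF652, NT5DC2, LPCAT1, RNF145 and HOXC13 passed in every alternative run that tested them.

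**Figure D4:**
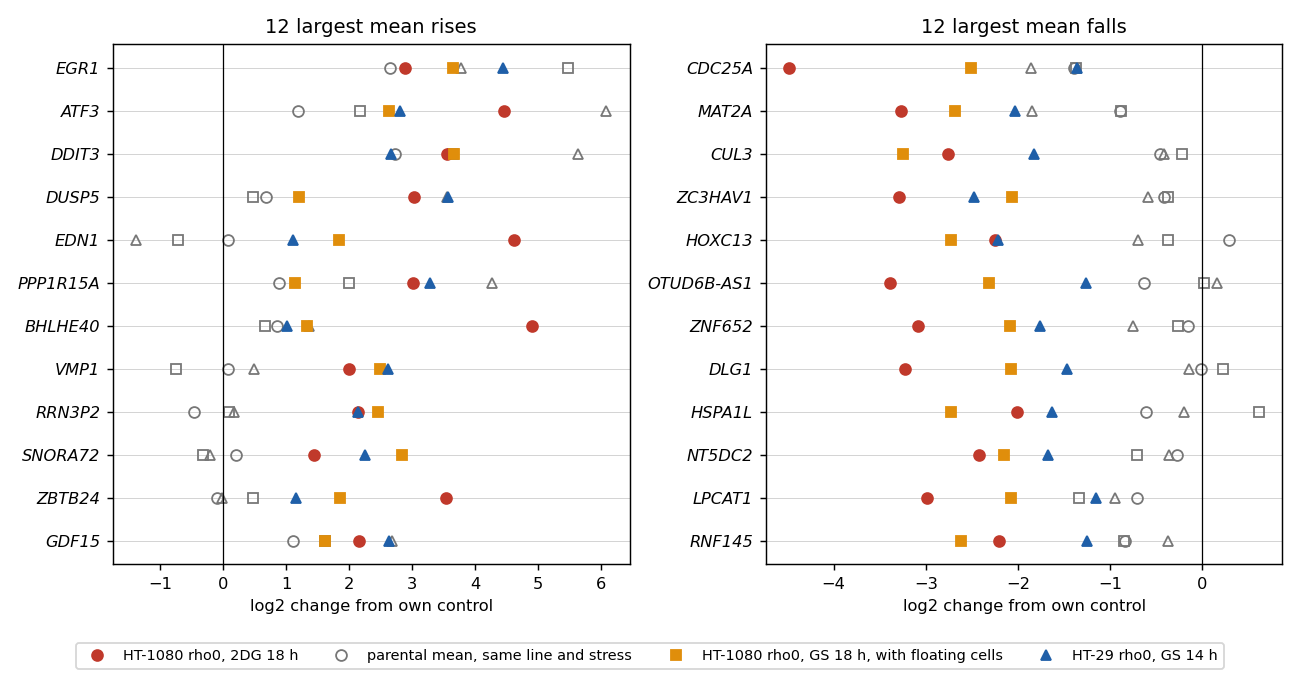
Log2 change from the own control for the 12 largest mean rises and 12 largest mean falls among genes that passed the test and moved by at least 1 on all 3 rho0 arrays (filled symbols), with parental means of the same line and stress as open symbols. Parental means of CUL3 were -0.46, -0.22 and -0.41 where the rho0 changes were -2.76, -3.25 and -1.83, and those of EGR1 were 2.65, 5.48 and 3.78 where the rho0 changes were 2.88, 3.65 and 4.44.

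Of 17 cytosolic heat shock genes 2 rose (DNAJB1 and HSP90AB1) and 2 fell (DNAJB6 and HSPA1L), against 4.91% and 8.12% of all genes. Rises numbered 0 without HT-1080 rho0 GS or HT-29 rho0, and 1 without HT-1080 rho0 2DG or without parental replicate 2 of HT-1080 2DG, replicate 1 of HT-1080 GS or replicate 2 of HT-1080 GS. Falls numbered 1 without either HT-1080 rho0 array. DNAJB1, an HSP40 co-chaperone, went from 701 to 1336, from 500.5 to 4437 and from 585 to 1861, highest in HT-1080 GS. Its rise (1.91 ± 0.52, limma adjusted p = 0.0254) was lost without the HT-1080 rho0 GS array (0.239) or the HT-29 rho0 array (0.0514). It was also lost over the mean of its probe sets (0.155) and with no intensity trend in the fit (0.0737). Another, somewhat dimmer probe set of DNAJB1 changed by -0.02, 0.28 and 0.40. HSPA6, an inducible HSP70, went from 13.2 to 14.1, from 12.1 to 246 and from 6.33 to 21.8. In parental cells it changed by 0.82 to 1.36 with 2DG, by 6.51 to 7.81 on the HT-1080 GS arrays and by 2.43 to 8.17 on the HT-29 GS arrays, so the gap to the rho0 arrays was larger in both GS pairs than in the 2DG pair. Its difference of -2.98 ± 0.93 (adjusted p = 0.0474) was lost without the HT-1080 rho0 GS array (0.179) and without the HT-29 rho0 array (0.222). It was lost too without parental replicate 1 of HT-1080 2DG (0.0676), replicate 2 of HT-1080 2DG (0.0694), replicate 3 of HT-1080 2DG (0.0568), replicate 1 of HT-1080 GS (0.0935), replicate 2 of HT-1080 GS (0.0684) or replicate 1 of HT-29 GS (0.0699). HSPA1L, another HSP70 gene, went from 46.2 to 7.16, from 48.2 to 2.48 and from 34.8 to 7.42, stressed signals close to the offset of 5.69. Its fall (adjusted p = 0.00487) and its difference of -2.01 ± 0.51 (adjusted p = 0.0197) were lost without the HT-1080 rho0 GS array (0.0535 and 0.156).

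Of 24 sterol and fatty acid synthesis genes 8 fell and none rose, against 8.12% and 4.91% of all genes. With the 6 rho0 arrays alone none fell, without the HT-1080 rho0 GS array 2 fell and without the HT-29 rho0 array 3. The medians were -0.11, -0.24 and -0.38, against -0.91 to -0.31 in parental cells. SQLE, squalene epoxidase, changed by -0.96, -1.69 and -0.44 (limma adjusted p = 0.00596), a call lost without the HT-1080 rho0 GS array (0.0669). INSIG1, a brake on sterol synthesis, changed by -0.31, -1.05 and -1.11 on its brightest probe set (adjusted p = 0.0221). That call was lost without the HT-1080 rho0 GS array (0.147) or the HT-29 rho0 array (0.0921). It was lost too with the 6 rho0 arrays alone (0.117) and with no block for each own control (0.309). Over the mean of its probe sets the change was -0.25 (adjusted p = 0.556). Dimmer probe sets of INSIG1 changed by 0.68, -0.94 and -0.89 and by 1.56, 0.06 and -0.28. Of 31 secretory traffic genes 1 fell (TMED10, a call lost without any 1 of the 7 HT-1080 arrays or without HT-29 rho0), and 10 had a lower change than in parental cells, against 7.79% of all genes. That count was 5 without each rho0 array in turn and 18 without the parental HT-29 array at 14 h.

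For several groups of abundant transcripts the counts varied with the scaling and with the fit. With the 6 rho0 arrays alone 0 genes rose among ribosomal proteins, the nuclear-encoded respiratory chain and glycolysis. With no intensity trend in the fit 0 rose in the respiratory chain and glycolysis lists. Of 38 ribosomal protein genes 36 rose, against 4.91% of all genes, with a median change of 0.36. The median was 0.02 after quantile normalization and 0.08 with the deposited scaling, where 1 and 5 of the 38 rose, and 12 rose without the HT-1080 rho0 2DG array and 7 without HT-1080 rho0 GS. RPL14 went from 5301 to 8096, from 5215 to 8712 and from 6030 to 7396 (mean 0.55 ± 0.09, limma adjusted p = 0.00294), a rise lost over the mean of its probe sets (0.0989). Its difference of 0.44 ± 0.10 (adjusted p = 0.0134) was lost with both other scalings and without either HT-1080 rho0 array (0.0667 without 2DG, 0.102 without GS). Of 44 nuclear-encoded respiratory chain genes 9 rose, against the same 4.91%, at a median of 0.18 that was -0.10 with the deposited scaling, where 5 fell; 0 rose without either HT-1080 rho0 array and 14 without HT-29 rho0. Of 21 glycolysis genes 5 rose (ALDOA, GAPDH, LDHA, LDHB and PFKP), at a median of 0.24 that was -0.05 with the deposited scaling, where 2 fell, and 1 rose without either HT-1080 rho0 array.

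Of 7 measured genes of zinc handling, 5 metallothioneins rose (MT1E, MT1F, MT1H, MT1X and MT2A) and the zinc exporter SLC30A1 fell, against 4.91% and 8.12% of all genes. After quantile normalization 2 rose, with the deposited scaling 1, and without either HT-1080 rho0 array 1. MT1X rose by 0.74, 0.77 and 0.94 (limma adjusted p = 0.00798). Its difference of 0.84 ± 0.22 (adjusted p = 0.024) was lost with both other scalings and without each of the 3 rho0 arrays in turn (0.0543, 0.0645 and 0.14). SLC30A1 changed by -0.86, -1.34 and -1.14 on its brightest probe set (adjusted p = 0.00209; difference -1.16 ± 0.21). A probe set of similar brightness changed by 2.65, 0.72 and 0.49, and over the mean of the probe sets the change was 0.088 (adjusted p = 0.831), so the direction of SLC30A1 is not settled.

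The other lists are given by their counts, beside 4.91% rises and 8.12% falls over all genes. Of 18 hypoxia targets 2 rose and 1 fell. Without HT-1080 rho0 2DG neither remained, without HT-1080 rho0 GS none fell, without HT-29 rho0 3 fell and without the parental HT-29 array at 14 h 2 fell. Of 13 mitochondrial chaperones and proteases 1 rose, a call lost without either HT-1080 rho0 array. Of 19 NRF2 antioxidant genes 1 fell, a call lost without HT-1080 rho0 2DG or HT-29 rho0, and without the latter 2 rose. Of 6 MondoA genes 1 rose and 1 fell, the rise lost without HT-1080 rho0 2DG and the fall without HT-1080 rho0 GS. Of 34 ribosome biogenesis genes 5 rose, and 2 without the HT-1080 rho0 2DG array. Of 27 proteasome genes 1 rose and 1 fell. Proteasome rises numbered 0 without HT-1080 rho0 GS, 3 without HT-29 rho0 and 2 without the parental HT-29 array at 14 h, and falls 0 without either HT-1080 rho0 array and 3 without HT-29 rho0. Of 10 colon epithelial markers 1 rose (KRT8), a call lost without HT-1080 rho0 GS or HT-29 rho0. Of 20 interferon-induced genes, 22 collagens and laminins and 8 mesenchymal markers none passed with limma, nor with the 6 rho0 arrays alone. Of the collagens and laminins 3 fell without HT-29 rho0, 3 without the parental HT-29 array at 14 h and 2 without parental replicate 2 of HT-29 GS.

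Parental HT-1080 cells were also given these stresses together with an inhibitor of respiration: 2DG with metformin, buformin, phenformin, rotenone or antimycin A on 5 arrays, and GS with rotenone or antimycin A on 3 arrays, some with floating cells. None of these 8 arrays shares a control with the rho0 arrays, but they share controls among themselves. The metformin, buformin and phenformin arrays had the same control. So did the arrays of 2DG with rotenone or antimycin A, and so did the GS arrays. The 8 changes are therefore not independent comparisons. Over the 36 genes above 1 on all 3 rho0 arrays the medians were 1.92 with 2DG and inhibitor and 1.19 with GS and inhibitor, and over the 75 below -1 they were -1.71 and -1.03. On all 8 arrays 10 of the 36 were past 1 upwards, against 0.166% of all genes, and 17 of the 75 downwards, against 0.576%. VMP1 changed by 2.80 to 4.19 with 2DG and inhibitor and by 2.58 to 3.31 with GS and inhibitor. CUL3 changed by -3.42 to -1.91 and by -2.54 to -1.28.

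With tunicamycin (TM), which blocks N-glycosylation, the ER list was higher in HT-1080 rho0 cells. On the 1 rho0 TM array, which shares its control with the HT-1080 rho0 GS array, the median of the list was 1.14, beside 1.08 on the 1 parental TM array. HSPA5 changed by 1.45 in rho0 and 1.34 in parental cells, CRELD2 by 3.38 and 2.93, and SEL1L by 2.67 and 2.17. VMP1 changed by -0.28 and CUL3 by -0.15 with TM in rho0 cells. With 1 array each, these TM values carry no test.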

How the data were processed

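The deposited values are MAS5 signal intensities on a linear scale, from Affymetrix arrays, per the submitters' processing notes. Here the arrays were brought to 1 trimmed mean (2% trimmed, target 114), an offset of 5% of it (5.69) was added, and log2 was taken. Of 54675 probe sets, 41097 had 1 gene symbol, 1801 several and 11777 none; 232 with missing values were dropped. Probe sets with a signal of at least 40% of the trimmed mean (45.5) on 2 of 38 arrays were kept (21480), and the one with the highest mean stood for each of 11456 genes. Changes are log2 against the own control that each array's description names, which was a fixed block. Tests were limma 3.58.1 (R 4.3.3, lmFit and eBayes with an intensity trend) over 22 arrays, with Benjamini-Hochberg adjustment over all genes. They were tested on simulated data, where 64% of genes changed by 1 (log2) and 99% changed by 2 were recovered for the rho0 response, and 50% and 96% for the difference. Alternatives covered scaling, offset, filter, probe set, trend, block, samples in the fit and left-out arrays. Leaving out parental arrays for the response was chosen after seeing the data. Named genes were 18 fixed genes, the 12 largest rises and falls past 1 on all 3 arrays, the 10 largest differences each way and leading members of 29 lists. From these the text takes those with a described role. Members and lists were chosen with earlier results of these data known. Promoters are RefSeq windows (GRCh38.p14). Figures used Python 3.11.15 and matplotlib 3.10.9.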

Additional observations from a re-analysis of the deposited data

Results flagged for a closer look

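The stress response of rho0 cells differed from that of parental cells by a test of the difference itself (limma, Benjamini-Hochberg adjusted) for 1594 genes. Of the 65 genes described, 48 were among them, 14 with a higher and 34 with a lower change in rho0 cells. In log2 units, the rho0 change minus the parental change was EDN1 3.22, VMP1 2.39, PLK3 1.36, CXCL8 2.87, TNFAIP3 2.01, NFKBIA 1.82, CCN2 1.86, MYC 1.84, RRM2 1.38, CCNA2 1.36, KIF11 1.24, MCM10 1.59, MT1X 0.84 and RPL14 0.44 for the genes with a higher change in rho0 cells. The genes with a lower change included SLC3A2 -1.12, CUL3 -2.22, MAT2A -1.44, ZC3HAV1 -2.17, ZNF652 -1.93, DLG1 -2.28, NT5DC2 -1.64, HOXC13 -2.13, LPCAT1 -1.09, RNF145 -1.32, EDEM3 -1.46 and SLC30A1 -1.16. Others with a lower change were XIAP -1.28, HSPA5 -0.66, HSP90B1 -1.36, PDIA4 -1.71, DNAJB9 -1.75, HERPUD1 -2.79, CRELD2 -2.63, SEL1L -2.63, XBP1 -0.94, EIF2AK3 -2.15, ERN1 -1.98 and ASNS -2.19. The rest were TRIB3 -2.50, SLC38A2 -2.36, WARS1 -2.12, AARS1 -1.28, HMOX1 -3.24, SLC7A11 -2.05, WIPI1 -3.33, VEGFA -1.98, HSPA6 -2.98 and HSPA1L -2.01. Of these 48 calls, 29 were kept without each of the 3 rho0 arrays in turn and 27 in all alternatives.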

How the results depend on the processing

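The 1492 calls of the rho0 response became 2476 with the deposited scaling, 994 with no intensity trend, 819 with no replicate block (a level per line and mtDNA status in place of each own control) and 137 with the 6 rho0 arrays only, of which 134 were shared with the 1492. Without 1 array and its control they ran from 500 to 1836. The 1594 differences became 958 with no intensity trend, 813 with no replicate block, and 438 to 1900 without 1 array and its control. The 111 genes past 1 on all 3 rho0 arrays became 180 with the deposited scaling and 64 with an offset of 20%, and 215 to 443 genes were past 1 on both arrays left when 1 was left out. In the other alternatives these counts stayed within 1.5 times of the values reported. Of the 39 named genes called in the response, 22 kept the call in all alternatives and 26 without each rho0 array in turn; for the 48 differences these counts were 27 and 29. SLC30A1 reversed in the response to 0.088 (adjusted p = 0.831, limma) over the mean of its probe sets, which moved in opposite directions. A further 35 sign changes, in 22 genes, were of values past the threshold in neither fit. The causes were not tested. Signals near the offset of 5.69 limit the size of changes in dim genes.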
